A study of Mus musculus with 24 samples.

Results

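Daxx-KO progenitors at the common myeloid stage (CMPs) and at the granulocyte-monocyte stage (GMPs) were compared through their lists of accessible chromatin, to show which sites were open at one stage and not at the other. Daxx is a chaperone that places the histone variant H3.3 on chromatin. The samples were the 4 labelled Daxx F/F, with 2 CMP and 2 GMP libraries, out of 24 in the series, and the members were the 50590 peaks of the Daxx-KO CMP list and the 49677 peaks of the Daxx-KO GMP list, 100267 of the 467728 peaks in the 9 lists used. Cells came from bone marrow of C57BL/6 mice with the genotype Daxx F/F Cre +/-, where Cre is the tamoxifen-activated CreERT2 expressed from Rosa26. The floxed exons of Daxx can thus be lost from any cell type and not from blood cells alone. Daxx-WT mice (Daxx +/+ Cre +/-) carried the same Cre and had the same tamoxifen treatment, and marrow was taken 3 weeks after it. The study as a whole used mice of both sexes, mostly juvenile to young adult when treated, and no age was given for single samples. CMPs were sorted as lineage-negative, c-Kit-positive, Sca-1-negative cells with CD34 and without CD16/32. The 2 libraries of each group were pooled into 1 list of positions, with no height, score or read count. Depth behind a peak was therefore unknown, there was no replicate of a list, and no difference below could be tested. Intervals given for shares are 95% Wilson intervals, which cover counting error only.

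ATAC-seq (transposase-accessible chromatin sequencing) marks DNA that is not covered by nucleosomes. Promoters, next to the start sites of genes, tend to be open across related cells, whereas distal elements, many of them enhancers, differ more between cell types. A CMP can give rise to erythroid, megakaryocytic, granulocytic and monocytic cells, and a GMP to the last pair. Along this step the GATA factors, which drive erythroid, megakaryocytic and mast cell genes, are known to give way to C/EBP factors, which drive granulocytic genes, while Pu.1 (encoded by Spi1) acts in lymphoid and myeloid cells alike.

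A peak of the Daxx-KO CMP list was called closed where no Daxx-KO GMP peak overlapped it by 1 bp, and a peak of the Daxx-KO GMP list was called opened where no Daxx-KO CMP peak overlapped it. These words describe the lists, and an unlisted site may still have had some accessibility. A peak was distal when it lay more than 1 kb from every annotated start site, and a promoter peak otherwise. The opened and the closed peaks below are shown first as sequence, with windows of 200 bp around the peak centre read from GRCm38 (mm10). They were picked for genes of the lists described later and for holding the named motif, in peaks that changed the same way in the Daxx-WT lists, so their motifs are no result. Capitals mark the motif on either strand.

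The first set comes from closed peaks and holds AGATAA, the letters searched for GATA factors. The genes nearby were Gata1, Kit and Prdm16. Gata1 encodes the main erythroid GATA factor, Kit the receptor for stem cell factor, and Prdm16 a regulator of stem cell maintenance. The Gata1 peak was 690 bp wide and lay in an intron 3.15 kb from a Gata1 start site, the Kit peak was 1136 bp wide and intergenic at 112 kb, and the Prdm16 peak was 578 bp wide and intronic at 13.8 kb. All of them were also listed in Daxx-KO LT-HSCs, the long-term haematopoietic stem cells.
Gata1, chrX:7971308-7971507, + strand: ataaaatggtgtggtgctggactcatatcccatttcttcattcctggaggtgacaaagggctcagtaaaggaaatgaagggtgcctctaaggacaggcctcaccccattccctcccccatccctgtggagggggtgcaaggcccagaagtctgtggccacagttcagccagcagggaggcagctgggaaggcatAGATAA
Kit, chr5:75762018-75762217, + strand: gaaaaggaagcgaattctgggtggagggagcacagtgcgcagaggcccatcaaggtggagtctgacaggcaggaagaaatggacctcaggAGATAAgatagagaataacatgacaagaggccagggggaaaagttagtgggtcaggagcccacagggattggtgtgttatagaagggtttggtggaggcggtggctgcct
Prdm16, chr4:154542757-154542956, + strand: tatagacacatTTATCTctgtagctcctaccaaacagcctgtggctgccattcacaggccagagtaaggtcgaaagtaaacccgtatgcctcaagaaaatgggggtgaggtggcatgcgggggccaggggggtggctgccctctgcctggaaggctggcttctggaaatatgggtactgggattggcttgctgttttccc

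The second set comes from opened peaks and holds the C/EBP motif TTGCNNAA. Cebpd encodes a C/EBP factor, Chil3 a chitinase-like protein of myeloid cells and Cd177 a surface protein of neutrophils. The peaks were 653 bp wide at Cebpd (intergenic, 8.69 kb from the start site), 447 bp at Chil3 (intergenic, 3.06 kb) and 375 bp at Cd177 (intronic, 2.67 kb). None of these peaks was listed in Daxx-KO LT-HSCs.
Cebpd, chr16:15878167-15878366, + strand: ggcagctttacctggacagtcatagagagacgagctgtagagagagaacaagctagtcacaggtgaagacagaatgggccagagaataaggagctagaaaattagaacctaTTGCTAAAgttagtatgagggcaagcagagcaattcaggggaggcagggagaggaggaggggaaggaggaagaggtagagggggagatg
Chil3, chr3:106170748-106170947, + strand: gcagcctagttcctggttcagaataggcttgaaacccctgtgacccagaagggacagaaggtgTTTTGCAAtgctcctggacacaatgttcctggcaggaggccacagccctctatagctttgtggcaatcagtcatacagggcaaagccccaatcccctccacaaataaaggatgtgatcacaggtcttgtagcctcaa
Cd177, chr7:24753578-24753777, + strand: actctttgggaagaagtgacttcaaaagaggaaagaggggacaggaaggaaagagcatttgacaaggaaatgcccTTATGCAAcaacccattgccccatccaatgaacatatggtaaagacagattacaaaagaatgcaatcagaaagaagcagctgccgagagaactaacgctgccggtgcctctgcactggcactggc

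The last sequence, an opened peak of 456 bp in an intron near Cybb (6.13 kb from the start site), holds the Pu.1 motif GAGGAAGT. Cybb encodes the catalytic subunit of the phagocyte NADPH oxidase. The peak was not listed in Daxx-KO LT-HSCs.
Cybb, chrX:9462809-9463008, + strand: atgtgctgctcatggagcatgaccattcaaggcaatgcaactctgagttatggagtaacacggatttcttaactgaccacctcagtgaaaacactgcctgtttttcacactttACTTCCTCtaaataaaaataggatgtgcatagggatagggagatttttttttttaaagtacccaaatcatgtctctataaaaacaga

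Most sites were open at both stages. Of 32925 distal peaks in the Daxx-KO CMP list, 9513 were closed (28.9%, interval 28.4 to 29.4), and of 32339 distal peaks in the Daxx-KO GMP list, 8835 were opened (27.3%, interval 26.8 to 27.8). Promoter peaks changed less often, with 1922 of 17665 closed (10.9%) and 1604 of 17338 opened (9.25%). The CMP list covered 37.3 Mb and the GMP list 35.3 Mb, with median widths of 661 and 631 bp. The log2 ratio of opened to closed distal peaks was -0.11, which is a surplus of closed peaks of 1.08 times. That small surplus turned to 0.08 when peaks listed in all 5 of the other LT-HSC, CMP and GMP lists were left out, so no direction of net change was read from it. In Daxx-WT cells 11083 distal peaks closed and 10562 opened, a log2 ratio of -0.07, out of 46017 and 45659.

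**Figure D1:**
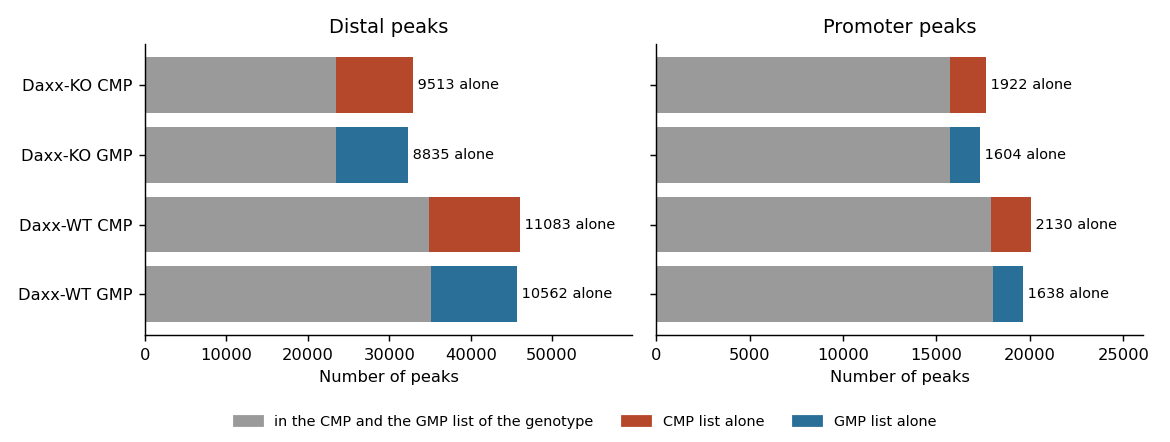
Number of distal (left) and promoter (right) peaks in the CMP and GMP lists of each genotype, with peaks in both lists of a genotype in grey and peaks in 1 list alone in colour. In Daxx-KO cells 9513 distal peaks were in the CMP list alone and 8835 in the GMP list alone, while 1922 and 1604 promoter peaks were.

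The share of peaks that changed differed with the distance to the nearest start site. Peaks over a start site were closed in 7.38% and opened in 5.43% of cases, whereas peaks 1 bp to 1 kb away from one were closed in 25.2% and opened in 24.4%. The closed share went on to 30.5% at 10 to 50 kb and 37.2% beyond 50 kb, and the opened share to 26.9% and 29.7%. Closed distal peaks lay in introns and between genes in equal number, 4562 each (48.0%), and 48.5% of opened peaks were intronic. Both kinds were narrower than shared peaks: the median width was 498 bp for closed against 593 bp for shared distal peaks of the CMP list, and 463 bp for opened against 570 bp for shared ones of the GMP list. Their G and C content (median 47.7% and 48.0%, against 49.1% in shared peaks) and the share of repeat-masked bases (median 11.6%, 11.4% and 11.0%) were close to each other. Over the autosomes the closed share ranged from 25.2% on chromosome 17 to 32.5% on chromosome 18 and the opened share from 24.8% on chromosome 4 to 32.1% on chromosome 19.

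The peak at the promoter of the targeted gene was shorter in Daxx-KO cells. The peak over the Daxx promoter (chr17, gene on the + strand, 33909414 to 33915590) ended at 33909980 in Daxx-KO CMPs and 33909998 in Daxx-KO GMPs, against 33910328 and 33910304 in the Daxx-WT lists. A peak past the 3' end of the gene was present in all of these lists, at 852 and 843 bp in Daxx-KO and 842 and 829 bp in Daxx-WT. Among the surface genes of the sort, the promoters of Kit, Cd34 and Fcgr3 (CD16) carried a peak at both stages. The peaks were 1462 and 1529 bp wide at Kit, 771 and 821 bp at Cd34, and 1857 and 1870 bp at Fcgr3. The promoter of Fcgr3 was therefore listed as open in CMPs, which were sorted as lacking the CD16/32 protein. Ly6a, the gene of Sca-1, had no promoter peak in any LT-HSC, CMP or GMP list, although LT-HSCs were sorted as Sca-1-positive. Slamf1, which encodes the stem cell marker CD150, had a promoter peak in CMPs (843 bp) and none in GMPs of either genotype.

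Sequence motifs separated the opened from the closed distal peaks. AGATAA, the GATA motif, was in the central 200 bp of 1471 of 9513 closed peaks (15.5%, interval 14.8 to 16.2), 623 of 8835 opened peaks (7.05%, 6.54 to 7.60) and 7.96% of shared peaks. TTGCNNAA, the C/EBP motif, showed the opposite order, with 714 closed peaks (7.51%, 6.99 to 8.05), 1842 opened peaks (20.8%) and 11.7% of shared peaks. The differences, closed minus opened, were 8.41 percentage points for GATA and -13.34 for C/EBP. GAGGAAGT, the Pu.1 motif, differed less, at 7.03% of closed (6.54 to 7.56), 10.3% of opened (9.68 to 11.0) and 9.29% of shared peaks, or -3.27 points. Windows with both the C/EBP and the Pu.1 motif made up 0.536% of closed and 1.54% of opened peaks. Over all distal peaks, whatever their class, GATA was in 10.1% of the CMP list and 7.64% of the GMP list, C/EBP in 10.5% and 14.2%, and Pu.1 in 8.64% and 9.63%.

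The position of the motifs followed the same lines. In closed peaks the GATA motif was most frequent at the centre, with 4.39% of peaks in the 50-bp bin just after it and 2.83% in the bin centred 475 bp after it. In opened peaks the same bins held 1.65% and 2.71%, a dip in place of a summit. Shared peaks had a dip as well, with 2.02% and 2.66%. For C/EBP the opened peaks had 6.72% in the bin just after the centre against 2.12% in the bin centred 475 bp after it. The closed peaks had 2.05% and 2.03%, and the shared peaks 3.20% and 2.02%. The Pu.1 motif had a summit in each class, at 3.70% in opened, 2.93% in shared and 2.13% in closed peaks just after the centre, against 0.317%, 0.261% and 0.326% in the bin centred 475 bp after it.

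**Figure D2:**
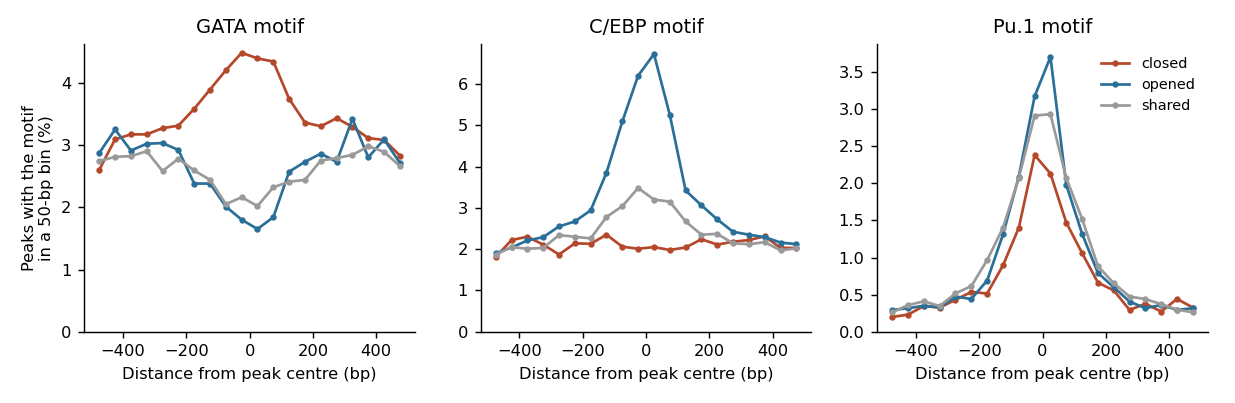
Share of Daxx-KO distal peaks (%) with a motif centred in each 50-bp bin, by distance in bp from the peak centre, for closed, opened and shared peaks. GATA reached 4.39% just after the centre of closed peaks, C/EBP 6.72% just after the centre of opened peaks, and Pu.1 had its summit at the centre of all classes.

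Of the other motifs searched on both strands, TGTGGTT, which Runx factors bind, was in 13.8% of closed and 8.27% of opened peaks. CAGCTG, an E-box, was in 1532 closed (16.1%) and 1152 opened peaks, and AGGGGGC, part of the CTCF motif, was in 6.17% and 4.63%. TGANTCA (AP-1) was the other one that was more common in opened peaks by over 1 point, at 10.5% against 7.50%. The motifs CCGGAAG (ETS, 1.87% of closed and 1.82% of opened peaks), TAACNG (MYB, 21.9% and 21.4%), CCACACCC (KLF, 2.42% and 3.08%) and GAAANNGAA (IRF, 8.42% and 7.29%) differed less. Over all distal peaks of the CMP list these motifs were in 11.4% (Runx), 15.8% (E-box), 6.75% (CTCF), 8.60% (AP-1), 2.32% (ETS), 20.2% (MYB), 2.70% (KLF) and 8.07% (IRF). ETS and Pu.1 share the letters GGAAG, but no window position can match both on the same strand. The Daxx-WT lists gave differences of like size, with 7.22 points for GATA, -13.81 for C/EBP and -2.32 for Pu.1. Whether the genotypes differ in these was not tested. Promoter peaks had the same order, with GATA in 9.31% of closed and 5.55% of opened and C/EBP in 5.15% and 15.3%.

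The Daxx-WT libraries came from other mice and gave a separate view of the same step. Of closed Daxx-KO distal peaks, 3621 (38.1%, 37.1 to 39.0) were in the Daxx-WT CMP list alone and 482 (5.07%) were in the Daxx-WT GMP list alone. Of opened peaks, 2883 (32.6%, 31.7 to 33.6) were in the Daxx-WT GMP list alone and 457 (5.17%) in the Daxx-WT CMP list alone. Peaks that changed in both genotypes thus went the same way more often than the opposite way. Among the 23412 shared Daxx-KO peaks, 3.20% were in the Daxx-WT CMP list alone and 1.91% in the Daxx-WT GMP list alone. Read from the Daxx-WT side, 32.6% of its 11083 closed and 27.1% of its 10562 opened distal peaks changed likewise in Daxx-KO.

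The largest class of both directions was open at both stages in Daxx-WT cells, with 3807 closed peaks (40.0%) and 5007 opened peaks (56.7%). In the reverse direction, 6.77% of closed and 4.23% of opened Daxx-WT peaks were in both Daxx-KO lists, and 56.5% and 64.1% were in neither. The Daxx-WT lists are longer (66070 and 65306 peaks), and the part of list length in this difference was not tested. A further 1603 closed (16.9%) and 488 opened (5.52%) peaks were in neither Daxx-WT list. The motifs followed these classes: the C/EBP motif was in 26.8% of opened peaks that opened in both genotypes, in 18.4% of those listed at both Daxx-WT stages and in 12.7% of those in the Daxx-WT CMP list alone. The GATA motif was in 19.9% of peaks closed in both genotypes, 11.7% of those listed at both Daxx-WT stages and 8.92% of those in the Daxx-WT GMP list alone.

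**Figure D3:**
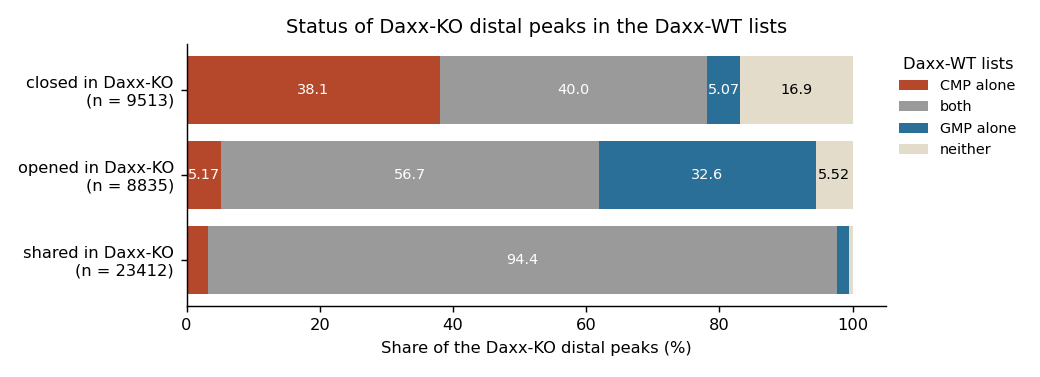
Share (%) of closed (9513), opened (8835) and shared (23412) Daxx-KO distal peaks that were in the Daxx-WT CMP list alone, in both Daxx-WT lists, in the Daxx-WT GMP list alone or in neither. The same direction held 38.1% of closed and 32.6% of opened peaks, and 94.4% of shared peaks were in both Daxx-WT lists.

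Some sites that every other list held were absent from a single Daxx-KO list. Among the 6 LT-HSC, CMP and GMP lists, 30643 regions were found in all. A further 2047 were absent from the Daxx-KO CMP list alone (6.26% of the regions that the other 5 lists shared) and 3341 from the Daxx-KO GMP list alone (9.83%). In the Daxx-WT CMP and GMP lists the numbers were 231 and 661. The absent regions were not narrow, with a median width of 924 bp for the Daxx-KO CMP list, and 259 of them and 435 of those absent from the GMP list exceeded 1500 bp. Such peaks made up 2799 of the closed (29.4%) and 1733 of the opened distal peaks (19.6%). Without them the motif differences were 9.68 points for GATA, -15.33 for C/EBP and -3.30 for Pu.1.

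Stem cells held most of what closed and little of what opened. The Daxx-KO LT-HSC list, from the same tamoxifen model, overlapped 74.0% of closed distal peaks (73.1 to 74.9) and 32.0% of opened ones (31.1 to 33.0). For comparison it overlapped 78.0% of all distal peaks of the CMP list and 66.7% of those of the GMP list, so closed peaks were near the level of their list and opened peaks well under theirs. The Daxx-WT LT-HSC list gave 70.1% and 28.3%. The Daxx-KO LT-HSC list was longer than the CMP and GMP lists, with 70455 peaks over 70.1 Mb. Per the paper, LT-HSCs were enriched for c-Kit before the sort, and CMP and GMP libraries were also sequenced as single reads. What these differences add to the shares was not tested. Opened peaks absent from Daxx-KO LT-HSCs (6005) held the C/EBP motif in 24.7% of cases and those present there (2830) in 12.7%. The closed peaks absent from Daxx-KO LT-HSCs (2475), which were listed in CMPs and at neither neighbouring stage, were richer in Pu.1 (11.0% against 5.64%), Runx (18.2% against 12.2%) and KLF motifs (4.28% against 1.76%) than the closed peaks present there (7038). Their GATA share was close, at 15.8% and 15.3%.

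KLS cells (c-Kit-positive, lineage-negative, Sca-1-positive) are a stem and early progenitor population that was profiled in a different experiment, without a Cre line named for these libraries. The study's DKO mice and the KLS cells of its RNA work at this time point carried Mx1Cre, induced with pI:pC, an interferon-inducing RNA analogue, and not the tamoxifen model. The ATAC libraries of KLS cells and their lists, named as peaks reproducible between libraries, were also made in another way, and the parts of Cre line, inducer and preparation cannot be told apart. The Daxx-KO KLS list held 49.0% of closed and 15.1% of opened peaks, and the Daxx-WT KLS list 28.4% and 8.89%. Over all distal peaks, the Daxx-KO KLS list held 63.5% of the CMP list and 54.7% of the GMP list, and the Daxx-WT KLS list 45.4% and 40.5%, so closed and opened peaks were both under the level of their lists there. The list of the double knockout (DKO, with Daxx F/F and Pu.1 F/F alleles and Cre +/-) was shorter, at 22156 peaks, and had the opposite order, with 6.89% of closed (6.39 to 7.41) and 12.9% of opened peaks (12.2 to 13.6). Shared peaks were in that list more often than either, at 27.4%, and all distal peaks of the CMP and GMP lists in 21.5% and 23.5% of cases.

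**Figure D4:**
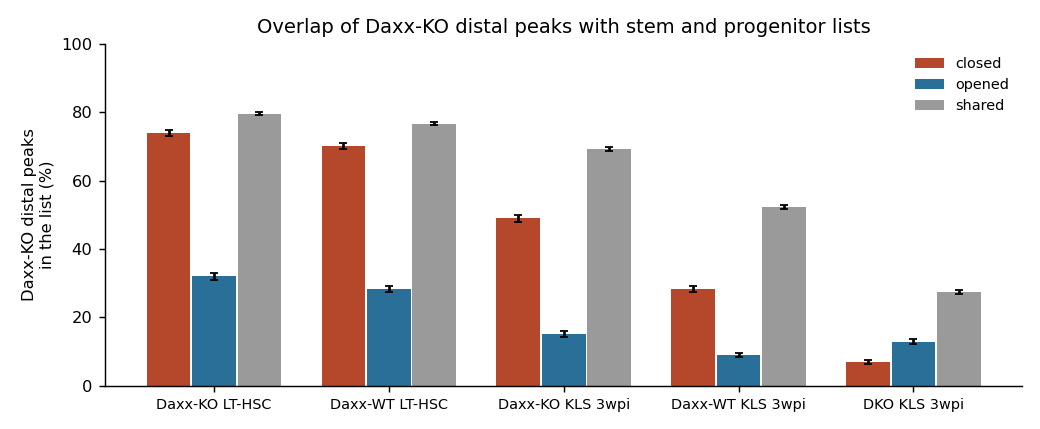
Share (%) of closed, opened and shared Daxx-KO distal peaks that overlapped a peak of each stem or progenitor list, with bars for 95% Wilson intervals (counting error only). Closed peaks exceeded opened ones in the LT-HSC lists and in the Daxx-KO and Daxx-WT KLS lists, and the order was turned in the DKO KLS list, at 6.89% and 12.9%.

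To name genes, each distal peak was given to the nearest protein-coding start site, which says nothing of whether the gene responded. Of 21911 protein-coding genes, 5646 (25.8%) were nearest to at least 1 closed peak and 5224 (23.8%) to at least 1 opened peak, 2645 to both. More closed than opened peaks lay at 3814 genes (17.4%) and more opened than closed at 3350 (15.3%). The number of peaks per gene differs, so each list is also given as a share of its own distal peaks, against 28.9% closed and 27.3% opened overall. The median gene had a surplus of 0, and the list medians lay between -1.0 (lymphoid) and 0.5. Examples below are the members with the most changed peaks, and any others were chosen after their values were seen.

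Stem and early progenitor genes had 44 closed and 28 opened peaks, so that 41.1% of their distal CMP peaks closed and 30.4% of their GMP peaks opened. Of 18 genes, 15 had a closed and 8 an opened peak. In Daxx-WT 23 of the 44 closed peaks were closed as well, against 38.1% over all closed distal peaks. Prdm16 and Mllt3, a cofactor of stem cell self-renewal, had the most closed peaks, 6 each. At Prdm16 none opened, and its 6 closed peaks, all intronic and 525 to 984 bp wide, were also in the Daxx-WT CMP list alone. Its promoter peak was 1858 bp wide in Daxx-KO CMPs and absent from Daxx-KO GMPs, while in Daxx-WT it was 1787 and 1259 bp wide. The promoter of Procr, which encodes the stem cell marker EPCR, went the other way, with no peak in Daxx-KO CMPs and 721 bp in Daxx-KO GMPs, and was listed at both Daxx-WT stages. The promoters of 16 of the 18 genes were listed at either Daxx-KO stage. Meis1, a homeobox factor of stem cells, had 4 closed and 0 opened peaks, and Hlf, a stem cell leucine zipper factor, 2 and 0. The group was not uniform, since Erg, an ETS factor of stem cells, had 4 closed and 7 opened peaks, Kit 4 and 5, and Myb, a factor of proliferating progenitors, 1 and 4. With every start site within 50 kb in place of the nearest, the group had 25 closed and 16 opened peaks.

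Erythroid and megakaryocyte genes had 29 closed and 18 opened peaks, 38.7% and 28.6% of their CMP and GMP peaks. Among 26 genes, 13 had a closed and 10 an opened peak. Zfpm1, the cofactor of Gata1, had the most with 7 closed and 4 opened, all intronic, and Sox6, a silencer of embryonic globin, had 6 and 1. Car2, a carbonic anhydrase of red cells, had 3 closed peaks at 28.7 to 187 kb and none opened, and Vwf, the von Willebrand factor gene of megakaryocytes, 4 and 2. The promoters told less, as 18 of the 26 genes had a promoter peak at either stage. Ermap had one in CMPs alone (548 bp), while Daxx-WT cells had it at both stages. The globin genes Hbb-bt and Hba-a1 (which has a near-identical copy), Slc4a1, Car1, Rhag and Gp1bb had none in either Daxx-KO list. Gata1 had one at both, of 684 bp in CMPs and 843 bp in GMPs, so it was not the promoter but the intronic element shown above that was absent from the GMP list. Of the 29 closed peaks of this group, 23 were in Daxx-KO LT-HSCs and 12 were closed in Daxx-WT. Both counts were near the shares over all closed distal peaks, 74.0% and 38.1%.

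Lymphoid genes had 49 closed and 27 opened peaks, 38.9% of CMP and 25.5% of GMP peaks, and 11 of 19 genes had more closed than opened peaks against 2 with the reverse. Bcl11a, which B cells need, had 9 closed and 4 opened peaks. Ets1 had 6 and 4, and Bach2, a repressor of B and T cells, 6 and 5. In Daxx-WT the group had 42 closed and 32 opened. Of its 49 closed peaks 36 were in Daxx-KO LT-HSCs, near the share of 74.0% over all closed distal peaks. Of its 27 opened peaks 4 were, under the share of 32.0% over all opened ones. Under an assignment to every start site within 50 kb, the surplus of closed over opened peaks in this group shrank to 28 against 23.

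Genes of the late neutrophil programme showed the reverse of the stem cell genes, with 4 closed and 14 opened peaks. Of their distal CMP peaks 19.0% closed, and of their GMP peaks 46.7% opened. Opened peaks lay at 10 of 18 genes and closed ones at 3. Chil3, Cybb, Cd177 and Padi4 (a histone-citrullinating enzyme of neutrophils) had 2 opened peaks each, and of these genes Padi4 also had a closed peak. Itgam, the CD11b gene, had 2 closed and 0 opened. Of the 14 opened peaks of the group, 1 was in the Daxx-KO LT-HSC list, against 32.0% over all opened distal peaks. In Daxx-WT, Chil3, Cybb and Cd177 each had 1 of its 2 sites in the GMP list alone and the other at both stages.

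Promoters of this group opened as well. The promoters of 6 of 18 late neutrophil genes were listed in Daxx-KO CMPs and 10 in Daxx-KO GMPs, while over all protein-coding genes 61.6% and 60.4% had a promoter peak. Those of Lcn2 (lipocalin, 999 bp), Ngp (neutrophilic granule protein, 508 bp), S100a8 (921 bp), S100a9 (505 bp) and Padi4 (516 bp) were in the GMP list and not in the CMP list. S100a8 and S100a9 encode the subunits of calprotectin. In Daxx-WT all but S100a8 had the same pattern, and S100a8 had a promoter peak of 732 bp already in CMPs. Ltf, the lactoferrin gene, went the other way in Daxx-KO, with 842 bp in CMPs and no peak in GMPs, whereas the Daxx-WT lists had 827 and 645 bp. Cybb, Ly6g, Fpr1, Retnlg, Chil3, Cd177 and Itgb2l had no promoter peak in either Daxx-KO list, though Cybb had one in both Daxx-WT lists (360 and 359 bp).

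Primary granule genes, many of which code for enzymes made at the promyelocyte stage, had 5 closed peaks of 20 and 12 opened peaks of 27 (44.4%). Ctsg (cathepsin G) and Ctsc (its activating protease) had 3 opened peaks each, and Ctsc also had 3 closed. The Ctsg peaks were 311 to 475 bp wide within 8.08 kb of the start site. Mpo (myeloperoxidase) had a single opened peak, 1306 bp wide and centred on an exon 2.97 kb from the start site, which both Daxx-WT stages listed. Elane (neutrophil elastase) had a promoter peak of 342 bp in Daxx-KO GMPs and of 361 bp in Daxx-WT GMPs, and none in the CMP and LT-HSC lists. The Ctsg promoter peak was 401 bp wide in CMPs and 699 bp in GMPs, with 466 and 768 bp in Daxx-WT and none in LT-HSCs. The promoters of 11 of 12 genes were thus open at the CMP stage and 12 at the GMP stage.

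Factors of granulocyte and monocyte fate changed on both sides, with 29 closed and 36 opened peaks, or 28.2% and 32.1%. All 14 promoters were open at both stages. Runx1 had 7 closed and 8 opened peaks and Zeb2 7 and 7. Cebpa had 3 opened peaks at 7.59, 8.45 and 20.4 kb and 1 closed peak at 19.4 kb. All of these opened peaks were listed in Daxx-KO LT-HSCs, and those at 7.59 and 20.4 kb at both Daxx-WT stages. The closed Cebpa peak was in the Daxx-WT GMP list and not in the Daxx-WT CMP list. Spi1 had 2 opened peaks of 346 and 347 bp in its introns, both of which Daxx-WT cells had at both stages, and no closed one. Irf8, which favours monocytes and dendritic cells over granulocytes, had 4 closed and 1 opened. Cebpe, needed for late granulocyte maturation, had a promoter peak in the CMP and GMP lists of both genotypes (1195 and 1332 bp in Daxx-KO) and in neither LT-HSC list.

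Myeloid cytokine receptors had 12 closed and 21 opened peaks (17.6% and 26.9%). Cxcr4, the receptor that keeps progenitors in the marrow, had 3 closed and 7 opened, and Cxcr2, the neutrophil chemokine receptor, 1 and 3. The opened Cxcr2 peaks were all listed at both Daxx-WT stages, and in Daxx-WT this gene had 1 closed and 0 opened peaks. More opened than closed peaks lay at 8 of the 16 receptor genes, and the reverse held at 4. Il1r1 was among the latter, with 3 closed and 0 opened. Csf1r, the M-CSF receptor, had a promoter peak of 650 bp in Daxx-KO GMPs and none in Daxx-KO CMPs, whereas Daxx-WT CMPs had one of 501 bp. Monocyte and dendritic cell genes had 8 closed and 13 opened peaks (15.7% and 22.8% of their peaks), of which F13a1 had 1 closed and 5 opened and Ly86 3 closed and 5 opened. Their promoters went from 9 to 12 of 13 genes, with those of F13a1, Cd74, Mrc1 and Cd14 in the GMP list alone and that of Ccr2 in the CMP list alone. In Daxx-WT the numbers were 12 and 13, and the promoters of F13a1 (1292 bp) and Cd74 (309 bp) were already listed in CMPs. The Ccr2 promoter was listed at both Daxx-WT stages (801 and 585 bp), and that of Mrc1 in Daxx-WT GMPs and not in CMPs. Clec7a, the remaining gene of the monocyte and dendritic cell list, was not found in the annotation by this name. The Cd14 peak was 1544 bp wide in GMPs and 1548 bp in Daxx-WT CMPs, so it was one of the wide sites that the Daxx-KO CMP list lacked.

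The smaller groups gave few peaks. Eosinophil, basophil and mast cell genes had 6 closed and 2 opened (27.3% and 11.8%), 4 of the closed ones at Il1rl1, the interleukin 33 receptor, and in Daxx-WT they had 2 and 2. Interferon and RNA sensing genes had 3 closed and 7 opened (16.7% and 31.8%), 3 of the latter at Ddx58, which encodes the sensor RIG-I. Surface genes of the sort had 13 and 10 (28.9% and 23.8%). Kit, Ly6a and Cd34 are in this list and in the stem and early progenitor list, so their peaks count in both. Housekeeping genes had 5 closed of 20 and 3 opened of 20 (15.0%), a log2 ratio of opened to closed peaks of -0.74, which was as large as that of the erythroid and megakaryocyte (-0.69) and stem cell genes (-0.65). All 12 housekeeping promoters were open at both stages. The surplus at surface genes of the sort turned to 8 closed and 11 opened when every start site within 50 kb was used.

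**Figure D5:**
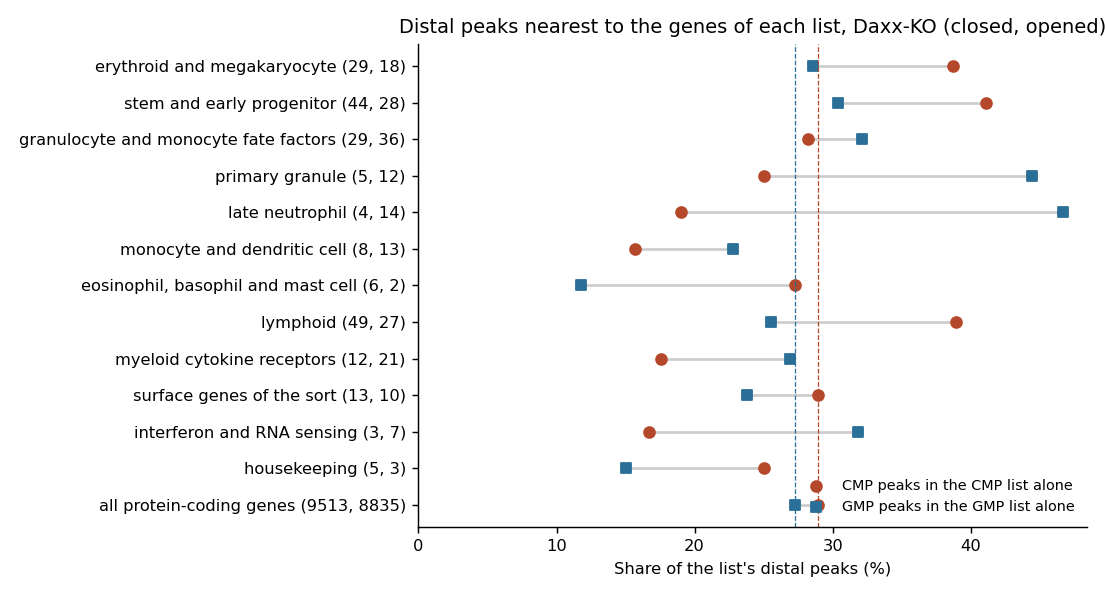
For each gene list, the share (%) of its distal peaks in the Daxx-KO CMP list that closed (circles) and of its distal peaks in the Daxx-KO GMP list that opened (squares), with the numbers of closed and opened peaks in parentheses and dashed lines at the shares over all genes (28.9% and 27.3%). Late neutrophil and primary granule genes lay at 46.7% and 44.4% opened, and stem, lymphoid and erythroid genes at 41.1%, 38.9% and 38.7% closed.

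The single genes with the largest surplus, named below, were all outside these lists. Ranked by opened minus closed peaks, the first 10 were Rybp (a Polycomb subunit, 12 opened and 2 closed), Gm826 (9 and 0), Nedd9 (an adhesion scaffold, 9 and 0), Snx18 (a sorting nexin, 11 and 2), Sipa1l1 (10 and 2), Notch2 (8 and 0), Rreb1 (12 and 4), Kcnrg (7 and 0), Dgkg (a diacylglycerol kinase, 7 and 0) and Mgst2 (a glutathione transferase, 7 and 0). In Daxx-WT, opened peaks exceeded closed ones at all of these but Rybp, which had 6 opened and 7 closed. None of the opened peaks at Gm826, Nedd9 and Notch2 was in the Daxx-KO LT-HSC list.

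The 10 genes with the largest opposite surplus were Adgrl2 (an adhesion receptor, 18 closed and 7 opened), Hivep3 (a zinc finger factor, 11 and 1), Ankrd50 (10 and 1), Gse1 (12 and 5), Auts2 (7 and 0), Fam198b (7 and 0), Prune2 (8 and 1), Sorcs2 (8 and 1), Rora (a nuclear receptor, 10 and 3) and Kalrn (a guanine nucleotide exchange factor, 8 and 2). Closed peaks exceeded opened ones in Daxx-WT at each of the 10. At Fam198b 6 of 7 and at Adgrl2 11 of 18 closed peaks were closed in Daxx-WT as well. All 7 closed peaks at Fam198b and 11 of 12 at Gse1 were in the Daxx-KO LT-HSC list. Since these genes were ranked by their counts, the counts only describe them.

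At protein-coding promoters 1427 peaks closed and 1175 opened, and 498 (34.9%) and 320 (27.2%) of them did so in both genotypes. The closed ones were in the Daxx-KO LT-HSC list in 88.4% and the opened ones in 56.7% of cases. The 10 widest promoter peaks that closed in both genotypes belonged to Arhgap6 (2072 bp), Sema5a (2025 bp), Ism1 (1998 bp), H2-Q2 (1855 bp), Hunk (1837 bp), Doc2a (1795 bp), Lbx2 (1736 bp), Vldlr (1719 bp), Gse1 (1710 bp) and Nbea (1707 bp), and each was present in Daxx-KO LT-HSCs. Vldlr, a lipoprotein receptor, also had 4 closed and 0 opened distal peaks, Arhgap6 and Ism1 3 and 0 each, whereas Hunk had 0 and 3 and Nbea 1 and 3. Gse1 was the gene among these that was also ranked above. The 10 widest that opened were at Zfp316 (2036 bp), Dbndd2 (1741 bp), H2afy2 (1548 bp), Dgkh (1451 bp), Six4 (1440 bp), Spin4 (1343 bp), Stard10 (1326 bp), Dmkn (1318 bp), Sall3 (1290 bp) and Tmprss3 (1211 bp). Of these, Dgkh, Stard10, Dmkn and Tmprss3 had no such peak in Daxx-KO LT-HSCs. H2afy2 encodes a macroH2A histone. Dgkh, a diacylglycerol kinase gene, had 4 opened and 0 closed distal peaks besides, whereas Sall3, a zinc finger factor gene whose promoter peak opened, had 7 closed and 1 opened. H2-Q2 belongs to a family of near-identical class I genes, where short reads can be placed on the wrong copy.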

How the data were processed

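ATAC-seq was run in duplicate on sorted CMPs and GMPs. Per the submitters' processing notes, the authors used CASAVA 1.8.4, cutadapt 1.13, STAR 2.5.3 and bedtools with mm10. They deposited, for each group, 1 list of peak positions pooled over its 2 libraries. The peak caller and its threshold were not given in the sources used here. Tables of the authors' own comparisons hold fold changes and p-values and were not used. The lists were read as deposited, on chromosomes 1 to 19, X and Y, and intervals repeated in the KLS lists were counted once. Overlaps, start site distances (GENCODE M21) and motifs (GRCm38.p6, 200 bp around the peak centre, exact letters on both strands) were computed in Python 3.11.15 with numpy 2.4.6, pandas 2.3.3, pysam 0.24.0 and scipy 1.17.1, and the functions were tested on simulated intervals. No test was run, because each group has 1 list. Genes were named mainly by 3 rules: members of the gene lists with the most changed peaks, the 10 largest surpluses in each direction, and the 10 widest promoter peaks that changed in both genotypes. Other members of the gene lists were named after their values were seen. The members and gene lists were chosen with earlier results of these data known. Alternatives varied the overlap, the distal distance, the start sites, the narrowest peaks, the chromosomes, the motif window and the gene assignment. Some items are not reported here.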

Additional observations from a re-analysis of the deposited data

How the results depend on the processing

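No paired analysis was possible because each list pools the libraries of a group, and for the same reason no replicate could be left out. Of 90 alternative values of the main results, 71 stayed within the counting interval of the reported value (counts: within 1.5 times), 18 moved and 1 reversed. With peaks up to 500 bp apart counted as shared, 34.0% of opened distal peaks were in the Daxx-KO LT-HSC list. Without the narrowest 20% of peaks, 39.2% of closed and 34.5% of opened peaks changed likewise in Daxx-WT, and 71.7% and 28.8% were in the Daxx-KO LT-HSC list. With promoters reaching to 2500 bp, 2938 promoter peaks closed and 2735 opened. The closed minus opened difference was 10.96 points for GATA and -15.52 for C/EBP in windows of 400 bp, and 12.31 and -15.34 in whole peaks. An alternative chosen after seeing the data left out peaks that overlap all 5 other lists. It gave 1202 closed promoter peaks, a log2 ratio of opened to closed distal peaks of 0.08 (6714 closed and 7102 opened), 53.9% of closed and 40.6% of opened peaks changing likewise in Daxx-WT, 63.1% and 15.4% in the Daxx-KO LT-HSC list, and motif differences of 9.68 (GATA) and -15.33 (C/EBP). With every start site within 50 kb, the surplus of opened over closed peaks at surface genes of the sort turned from -3 to 3, and the other 11 lists kept their direction, though 6 of them moved by over 1.5 times (erythroid and megakaryocyte to -18, stem to -9, primary granule to 13, lymphoid to -5, interferon to 8 and housekeeping to -5). The lists hold no read counts, so what depth limits in them is unknown.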
